A study of Homo sapiens with 414 samples.

Results

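The cells described here are 55 single LNCaP cells chosen by their reads of mitotic genes 48 h after transfection with an siRNA against SULT2B1. They are 28.6% of 192 knockdown cells and were chosen by their own read counts. A cell was placed in the mitotic-program class when at least 3 of the 6 genes MKI67, TOP2A, CCNB1, CDK1, UBE2C and TPX2 reached 10 CPM, the reads of a gene scaled to the total reads of its cell. The remaining 137 knockdown cells, with fewer than 3 of these genes at that level, are called the other cells. The study examined how SULT2B1, a sulfotransferase that acts on cholesterol and related sterols, affects the death of prostate cancer cells exposed to TNF. LNCaP is a human prostate carcinoma line that responds to androgen, and it is the 1 line used here. The knockdown siRNA came from IDT and the non-targeting control siRNA from Dharmacon, both harvested at 48 h, and single cells were read out on a Fluidigm C1 instrument in 3 batches that held both arms. Of 401 cells in all, 209 were control cells.

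A dividing cell passes through a phase of DNA synthesis (S phase) and then through G2 and mitosis, and each stage has its own set of transcripts. The p53 protein holds this cycle back, mainly by switching on CDKN1A, whose product p21 inhibits the cyclin-dependent kinases and leads to the silencing of mitotic genes by the DREAM complex. The interferon pathway is a separate defence program: sensors such as RIG-I and MDA5 detect double-stranded RNA, cells then make interferon beta and interferon lambda, and these ligands signal through JAK kinases and STAT factors to switch on antiviral genes.

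The 55 mitotic-program cells came from all batches. They were 17 of 66, 18 of 65 and 20 of 61 knockdown cells in batches 1, 2 and 3, which is 25.8%, 27.7% and 32.8%. In the control arm the same rule placed 117 of 209 cells in the class, and the shares were 48.7%, 77.3% and 43.3%. The 6 genes chose the members, so their values are a description and were left out of every test. CDK1, the kinase that drives entry into mitosis, reached 10 CPM in 94.5% of the mitotic-program cells and in 27.7% of the other cells. CCNB1, its cyclin, did so in 92.7% of mitotic-program cells and 46.0% of other cells. TOP2A, a topoisomerase that separates the daughter chromosomes, reached that level in 30.9% of the mitotic-program cells and 1.46% of the other cells, so it marked the fewest members. The 16 cells just inside the limit, with exactly 3 genes, had a median of 130 CPM of CDK1, and the 38 cells just outside it, with 2 genes, had 16.8 CPM. For CCNB1 these medians were 87.9 CPM just inside and 89.6 CPM just outside, so the cells next to the limit differed little in this gene. The class was also uneven between batches: 11 of its cells in batch 1, 2 in batch 2 and 10 in batch 3 had 5 or 6 of the genes. A list of 50 G2 and M phase genes summed to a median of 11880, 2663 and 3820 CPM per mitotic-program cell by batch. In other cells the medians were 1248, 1337 and 1298 CPM. Some members with exactly 3 of the 6 genes lay below these, such as 1 cell of batch 1 at 750 CPM, so not every member had the wider program.

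**Figure D1:**
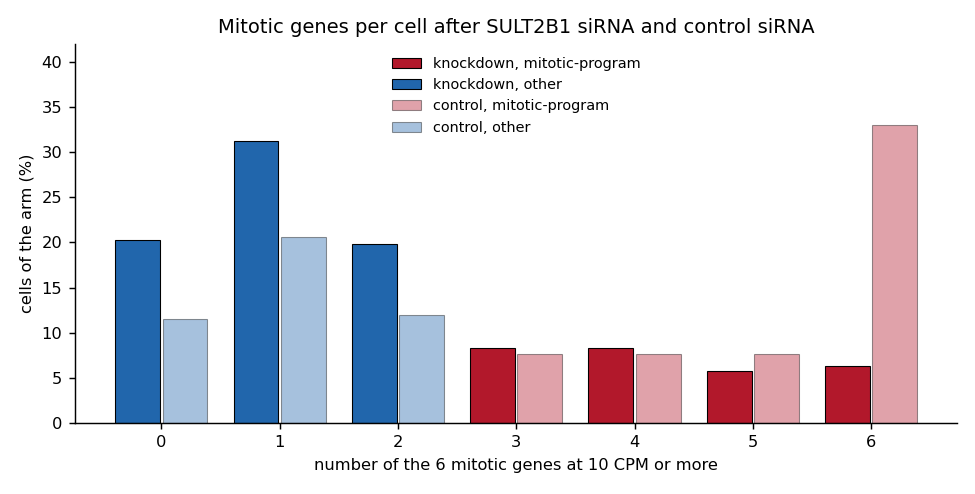
Share of the cells of each arm (y axis, percent) by the number of the 6 mitotic genes at 10 CPM or more (x axis), with knockdown cells as solid bars to the left and control cells as pale bars to the right of each pair. Among the 192 knockdown cells 12 had all 6 genes, and among the 209 control cells 69 did.

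Depth and quality were compared between the classes by batch. Median reads per cell, averaged over the 3 batches, were 1281018 in mitotic-program cells and 1210935 in other cells (exact permutation within batches, two-sided, p = 0.25). Per-cell medians of detected genes were 9079 ± 290 in mitotic-program cells and 8653 ± 167 in other cells (SD, n = 3 batches, exact p = 0.25), higher in the mitotic-program cells of every batch. The design cannot give a p below 0.25 here. Mitochondrial genes took a median of 6.13% of reads in mitotic-program cells and 6.80% in other cells, and 1 mitotic-program cell and 7 other cells had over 20%, 6 of these 7 in batch 1. All 13 mitochondrially encoded genes had a negative log2 fold change and none was called. Their median was -0.38, and it was -0.031 without batch 1. The part of this in the results below was not tested, and without the cells over 20% the test called 18 genes in place of 17. Prostate epithelial identity was checked with KLK3, which encodes prostate-specific antigen, at 362, 428 and 286 CPM in the mitotic-program sums of batches 1, 2 and 3 and 201, 350 and 227 CPM in the other sums. Markers of other cell types were sparse: 4 measured basal markers summed to between 0.0342 and 3.40 CPM in mitotic-program cells and between 0.383 and 3.82 CPM in other cells, and 4 blood and endothelial markers to between 1.72 and 7.62 CPM in mitotic-program cells and between 3.07 and 6.10 CPM in other cells. The 4 neuroendocrine markers, led by ENO2, summed to between 2.16 and 5.17 CPM in mitotic-program cells and between 6.01 and 9.56 CPM in other cells. The 5 mesenchymal markers, led by FN1, summed to between 43.8 and 91.4 CPM in mitotic-program cells and between 70.8 and 138 CPM in other cells, with CDH2 at 0 in all sums.

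The targeted gene was read in few knockdown cells. SULT2B1 had 0, 2 and 0 reads in the mitotic-program cells of batches 1, 2 and 3, against 13, 19 and 0 reads in the other cells. One mitotic-program cell and 3 other cells held these reads. The ratio of these counts, relative to total reads, was 0.146, with a counting interval from 0.0169 to 0.572 at 95%, and the gene was too low for the test. In the control arm it had 236 reads in 26 of 117 mitotic-program cells and 357 reads in 17 of 92 other cells.

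For the comparison of the classes, reads were summed over the cells of each class and batch. This gave 3 mitotic-program sums of 21512084, 19425177 and 29306215 reads and 3 other sums of 56384945, 52204931 and 55052829 reads. The batch was the replicate, since the cells of 1 batch share their preparation. Some knockdown libraries of batch 1 are labelled as repeated in the sequencing of batch 2, and they were kept in batch 1. Nothing in the labels tells whether each batch was its own culture, and the p-values therefore reflect variation between batches that may be technical. Values below are CPM of these sums with TMM scaling, in the order of batches 1, 2 and 3, and log2 fold changes are mitotic-program over other cells from edgeR's quasi-likelihood test with batch in the fit. Of 17624 genes tested, 16 were higher (0.0908%) and 1 was lower (0.00567%) at an adjusted p under 0.05, 17 in either direction (0.0965%). At an unadjusted p under 0.05, 764 genes were higher (4.33%) and 817 lower (4.64%). All 3 mitotic-program sums lay above all 3 other sums for 1298 genes (7.36%) and below them for 1637 (9.29%). The median log2 fold change of all genes tested was -0.12.

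Of the 16 genes that rose, 6 are in the G2 and M phase list and 2 in the S phase list. The rule selects on genes of the same program, so the 16 describe the class and are not independent of how it was chosen. They are KIF20A, CENPE, KNL1, ANLN, CDCA3, HMMR, BIRC5 and MAD2L1, which act on the spindle, the kinetochore or cell division, EXO1, MCM10, CDC6 and RNASEH2A, which act in DNA replication and repair, SMC2, HMGB2 and H2AZ1, which are parts of chromatin, and KPNA2, a nuclear import factor. EXO1, an exonuclease of DNA repair, had 41.1, 15.1 and 43.1 CPM in mitotic-program cells, against 0.0183, 0 and 0 CPM in other cells. Its 2442 reads in mitotic-program cells stood against 1 read in other cells, a count ratio of 5698 with a counting interval from 1022 to 225130 (edgeR adjusted p = 0.0437). Amplified reads are not independent molecules, so such intervals cover counting error only. EXO1 had a read in 14 of 55 mitotic-program cells (25.5%). A single cell gave 38.6%, 36.55% and 65.3% of its mitotic-program reads in batches 1, 2 and 3. With equal weight per cell its difference was 1.63 (limma adjusted p = 0.0258). KIF20A, a kinesin of the dividing spindle, had 154, 17.4 and 35.5 CPM in mitotic-program cells against 0.292, 0.0377 and 0.0367 CPM in other cells (log2 fold change 9.16, SE 0.45, edgeR adjusted p = 0.0336). A read of KIF20A was found in 20 of 55 mitotic-program cells (36.4%) and 9 of 137 other cells (6.57%). By batch, 1 cell gave 31.75%, 71.3% and 52.8% of its mitotic-program reads. With equal weight per cell the KIF20A difference was 2.27 and was not called (limma adjusted p = 0.134). Over the 16 genes, the mitotic-program sum of batch 1 was the highest for 14 and that of batch 2 the lowest for 13. HMMR, a spindle protein, had 384, 154 and 187 CPM in mitotic-program cells and 8.75, 3.37 and 8.34 CPM in other cells (log2 5.15, SE 0.30, edgeR adjusted p = 0.0349). H2AZ1, a histone variant, moved least among the 16, with 3154, 2223 and 2325 CPM in mitotic-program cells against 1447, 999 and 1103 CPM in other cells (log2 1.12, SE 0.09, edgeR adjusted p = 0.0437). RNASEH2A, SMC2, H2AZ1, MAD2L1 and KPNA2 are named here after their values were seen.

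**Figure D2:**
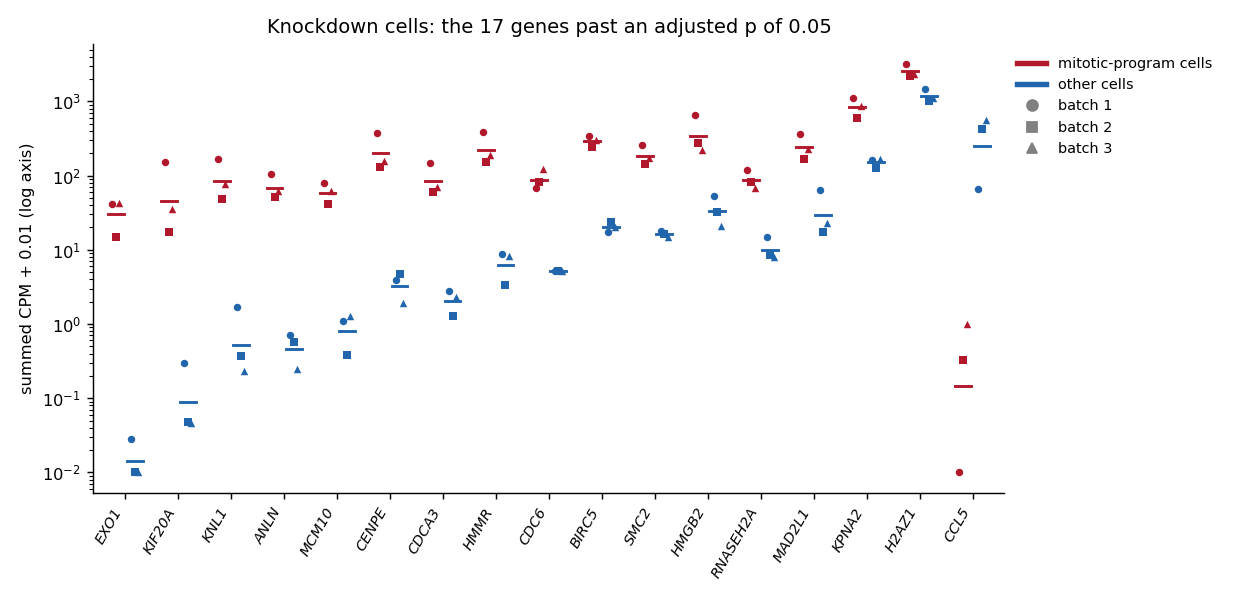
Summed CPM plus 0.01 (log axis) of the 17 genes past an edgeR adjusted p of 0.05 in knockdown cells, with mitotic-program sums (red, left) and other sums (blue, right) for batches 1 to 3 as separate symbols and the geometric mean as a line. The 16 genes to the left are higher in each mitotic-program sum, and CCL5 at the right end is lower in each.

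Of 50 G2 and M phase genes tested, 6 were called higher and none lower, 44 (88.0%) had all mitotic-program sums above all other sums, and the median log2 fold change was 3.83. Of 42 S phase genes tested, 2 were called higher and none lower, 36 (85.7%) lay wholly above, and the median was 1.81. Of all genes, 0.0908% were called higher and 7.36% lay wholly above. The rule selects on cell cycle genes, so these list counts also describe the class and are not independent of how it was chosen. RRM1, a subunit of ribonucleotide reductase, had 379, 244 and 273 CPM in mitotic-program cells and 128, 101 and 91.7 CPM in other cells (log2 1.47, SE 0.14, edgeR adjusted p = 0.0685). E2F1, a transcription factor that starts S phase, had 4.29, 8.48 and 3.36 CPM in mitotic-program cells against 0.0365, 0 and 0 CPM in other cells, with 2 reads in all other cells together. Its count ratio was 414, with a counting interval from 114 to 3433. Among 18 tested genes of G1 control, none was called and the median was 0.24.

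The promoters of 2 of the genes that rose are shown because both hold the paired words through which the mitotic program is known to be controlled: the cell cycle homology region (CHR, TTTGAA), bound by the DREAM and MuvB complexes, and the CCAAT box (CCAAT), bound by NF-Y. The sequences are from RefSeq on GRCh38.p14, from 250 bases before to 50 bases after the gene start, read 5′ to 3′ on the strand of the gene, with matches on either strand in capitals. HMMR lies at chr5:163460382-163460681 on the plus strand and CDCA3 at chr12:6851237-6851536 on the minus strand. In HMMR a CCAAT box on each strand shares bases with the other, and 2 CHR words stand side by side.
HMMR: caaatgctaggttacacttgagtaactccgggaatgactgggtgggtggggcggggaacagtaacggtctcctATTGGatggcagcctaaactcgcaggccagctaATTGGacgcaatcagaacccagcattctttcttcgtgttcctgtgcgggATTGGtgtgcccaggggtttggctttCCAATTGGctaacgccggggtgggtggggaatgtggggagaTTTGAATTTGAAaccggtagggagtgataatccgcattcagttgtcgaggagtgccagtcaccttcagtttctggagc
CDCA3: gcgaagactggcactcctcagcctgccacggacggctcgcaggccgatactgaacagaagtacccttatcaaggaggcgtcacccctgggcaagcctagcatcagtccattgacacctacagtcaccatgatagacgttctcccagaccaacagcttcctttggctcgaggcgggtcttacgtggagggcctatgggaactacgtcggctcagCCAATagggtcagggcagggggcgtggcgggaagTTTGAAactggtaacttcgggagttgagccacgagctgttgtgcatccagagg
Of the 16 genes that rose, 13 had an entry. Among these, 7 (53.8%) held TTTGAA and 9 (69.2%) held CCAAT, counted on both strands. Of 44 promoters of the G2 and M phase list, 28 (63.6%) held TTTGAA and 30 (68.2%) held CCAAT. Of all 27305 promoters in the table, 15.4% held TTTGAA and 35.7% held CCAAT. A match is a description of the letters and not evidence of binding.

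The single gene that fell was CCL5, a chemokine that attracts T cells and is induced by interferon and NF-kB signalling. It had 0, 0.312 and 0.979 CPM in mitotic-program cells, against 66.4, 419 and 559 CPM in other cells (log2 fold change -9.78, SE 0.48, edgeR adjusted p = 0.0336, lower in 3 of 3 batches). Every other sum was far above every mitotic-program sum. CCL5 passed the filter on low counts only with the help of the other sums, the class where it is high. The reads came from few cells. At 10 CPM or more CCL5 was found in 0 of 55 mitotic-program cells, with an exact upper limit of 6.49%, and in 11 of 137 other cells (8.03%, exact Clopper-Pearson interval 4.08 to 13.9%). Intervals for shares of cells, here and below, pool the cells of the 3 batches and do not cover variation between batches. At least 1 read was found in 15 mitotic-program cells (27.3%) and in 36 other cells (26.3%). These pooled shares were close, but the batches differed in direction. By batch the shares were 0%, 11.1% and 65.0% in mitotic-program cells and 28.6%, 19.1% and 31.7% in other cells. The cells at 10 CPM or more were all other cells. A single cell gave 46.7%, 88.9% and 89.9% of the CCL5 reads of the other sums of batches 1, 2 and 3, so in batches 2 and 3 the sum was mostly that of 1 cell. In control cells, 0% of the mitotic-program cells and 0.877% of the other cells had a read. The log2 fold change was -9.57 without batch 1 (edgeR adjusted p = 0.149), -9.49 without batch 2 (0.0801) and -9.55 without batch in the fit (0.0557), so the size stayed close while the call was lost. It was -10.70 without batch 3 (edgeR adjusted p = 0.0436), -9.84 without a filter on low counts (0.00689) and -10.99 with cells thinned to 100000 reads and classed again (1.6e-05), and the call was kept. When every cell counted equally on the log2(CPM + 1) scale the difference was -0.72 (limma adjusted p = 0.239).

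Most interferon genes had lower values in the mitotic-program sums, and 1 passed the threshold. Of 90 interferon genes tested from 7 lists, 1 was called lower and none higher. At an unadjusted p under 0.05, 31 were lower and none higher, beside 4.64% and 4.33% of all genes. Of all genes, 9.29% had all mitotic-program sums below all other sums and 7.36% above. All 3 mitotic-program sums lay below all 3 other sums for 37 of the 90 (41.1%), and above them for 1, PNPT1, a mitochondrial RNase, with 99.7, 129 and 124 CPM in mitotic-program cells against 87.8, 83.2 and 93.2 CPM in other cells. The median log2 fold change was -0.79, and 73 of the 90 were negative. With DESeq2, which called 562 genes higher (3.13%) and 538 lower (3.0%), 26 interferon genes were lower and none higher. With equal weight per cell, where limma called 181 genes higher (1.03%) and 7 lower (0.0397%), none of the 90 was called and their median difference was -0.20, beside 0.08 for all genes. The sums weight each cell by its reads and follow the few cells with the highest values. Some of these cells were high in several genes at once, so the gene counts here and below are not separate observations. In batch 3 a single other cell had 20407 CPM of CCL5, 30055 of CXCL10 and 78425 of IFIT2. In batch 2 a single other cell had 19334, 5516.5 and 23663. The per-cell median of the summed interferon lists, averaged over batches, was 5186 CPM in mitotic-program cells and 5779 in other cells.

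The ligands come first in the pathway. All 4 tested ligands had every mitotic-program sum below every other sum, as did 9.29% of all genes, and no ligand was called. On the mitotic-program sums alone, IFNB1, IFNL2 and IFNL3 would not have passed the filter on low counts. They were tested through the class where they are high, so their direction is not independent of the filter. IFNL1, which encodes interferon lambda 1, had 1.74, 0.26 and 3.08 CPM in mitotic-program cells, against 37.9, 17.1 and 131 CPM in other cells (log2 -5.21, SE 0.46, edgeR adjusted p = 0.0618). IFNB1, interferon beta, had 0.0893, 8.64 and 0.979 CPM in mitotic-program cells against 37.9, 25.5 and 44.7 CPM in other cells (log2 -5.03, SE 1.57, edgeR adjusted p = 0.489). Neither passed the threshold. IFNL2 and IFNL3 are near copies of each other, so their reads may be split, and they had edgeR adjusted p of 0.189 and 0.0866. A read of any ligand was present in 19 of 55 mitotic-program cells (34.5%, interval 22.2 to 48.6%) and 35 of 137 other cells (25.5%, 18.5 to 33.7%; exact permutation within batches, two-sided, p = 0.5). The shares were 41.2%, 5.56% and 55.0% in mitotic-program cells and 24.5%, 14.9% and 39.0% in other cells. At 10 CPM or more IFNL1 was found in 3 mitotic-program cells (5.45%) and 14 other cells (10.2%), lower in every batch. IFNB1 reached 10 CPM in 2 mitotic-program cells (3.64%) and 7 other cells (5.11%), with the higher share in mitotic-program cells in batch 2. IFNL2 and IFNL3 reached it in 0 mitotic-program cells and in 5 and 6 other cells. In the other sums of batches 1, 2 and 3, 1 cell gave 62.7%, 68.6% and 94.2% of the IFNL1 reads and 97.6%, 93.9% and 96.3% of the IFNB1 reads, so each IFNB1 sum was nearly that of 1 cell. Against the cells with none of the 6 genes the IFNB1 fold change turned to 1.76, and with equal weight per cell the median difference of the 4 ligands was -0.32, against -6.26 in the sums.

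The promoters of IFNL1 and CXCL10 are shown because these genes had low mitotic-program sums and hold the word GAAA, any 2 bases, GAAA, the core that IRF factors and the ISGF3 complex are known to bind. The IFNL1 window is chr19:39296157-39296456 on the plus strand and the CXCL10 window chr4:76023448-76023747 on the minus strand, from the same RefSeq table and in the same format, with matches on either strand in capitals. In IFNL1, 2 matches overlap.
IFNL1: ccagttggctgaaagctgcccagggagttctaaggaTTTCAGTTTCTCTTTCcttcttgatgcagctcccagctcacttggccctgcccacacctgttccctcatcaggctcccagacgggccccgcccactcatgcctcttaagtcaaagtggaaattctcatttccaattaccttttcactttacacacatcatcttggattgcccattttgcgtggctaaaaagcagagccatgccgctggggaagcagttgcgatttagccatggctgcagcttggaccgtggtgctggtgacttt
CXCL10: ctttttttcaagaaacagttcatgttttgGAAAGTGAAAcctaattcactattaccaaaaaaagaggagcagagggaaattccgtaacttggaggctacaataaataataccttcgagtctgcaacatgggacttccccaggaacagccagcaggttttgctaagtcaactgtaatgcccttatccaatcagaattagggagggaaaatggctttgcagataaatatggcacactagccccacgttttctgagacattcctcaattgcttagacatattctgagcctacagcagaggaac
Of 14 promoters of ligands and chemokines in the table, 6 (42.9%) held the word on either strand, as did 24 of 36 promoters of antiviral effectors (66.7%), 0 of the 13 promoters of genes that rose and 3.65% of all 27305 promoters.

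CXCL10, a chemokine induced by interferon, had 90.2, 13.3 and 22.9 CPM in mitotic-program cells, against 799, 198 and 1747 CPM in other cells (log2 -4.39, SE 0.69, edgeR adjusted p = 0.199). A read was found in 23 of 55 mitotic-program cells (41.8%) and 73 of 137 other cells (53.3%), and 10 CPM or more in 3 mitotic-program cells (5.45%) and 20 other cells (14.6%). In batches 1, 2 and 3, 1 cell gave 99.5%, 98.4% and 93.0% of the CXCL10 reads of the mitotic-program sum, and 1 cell gave 54.3%, 53.6% and 57.0% of those of the other sum. CXCL11, a related chemokine, had 0.581, 21.3 and 1.54 CPM in mitotic-program cells against 74.5, 96.6 and 72.9 CPM in other cells (log2 -4.90, SE 1.11, edgeR adjusted p = 0.368). The list of 7 tested chemokines had a median of -4.90 and 3 of its members lay wholly below, beside 9.29% of all genes. With equal weight per cell the median was -0.14, and without the cells that had a ligand read it was -1.39 over the 2 chemokines still tested.

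Sensors and signalling genes had smaller differences. IFIH1, which encodes the sensor MDA5, had 56.3, 19.8 and 27.4 CPM in mitotic-program cells and 98.5, 62.6 and 105 CPM in other cells (log2 -1.47, SE 0.30, edgeR adjusted p = 0.313). RIGI had 267, 354 and 91.1 CPM in mitotic-program cells against 496, 387 and 477 CPM in other cells (log2 -1.12, SE 0.45, edgeR adjusted p = 0.562). RIGI reached 10 CPM in 49.1% of mitotic-program cells and in 70.8% of other cells. The median log2 fold change was -0.37 over 8 sensors and adaptors, -0.65 over 7 IRF factors and kinases and -0.85 over 8 receptor and JAK-STAT genes, and none of these genes was called. The sensor median was 0.23 without batch 1, -0.92 without batch 2 and 0.051 with equal weight per cell, so its sign turned, and the IRF median was 0.013 against the cells with none of the 6 genes. IRF1, an interferon-induced transcription factor, had 11.4, 11.4 and 7.10 CPM in mitotic-program cells and 21.3, 30.6 and 28.8 CPM in other cells (log2 -1.45, SE 0.42, edgeR adjusted p = 0.467).

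Among 41 antiviral effectors tested, none was called, 16 (39.0%) lay wholly below and 1 wholly above, and the median was -0.80. Of all genes, 9.29% lay wholly below and 7.36% wholly above. RSAD2, which encodes viperin, had 16.0, 3.12 and 6.89 CPM in mitotic-program cells, against 107, 89.0 and 62.0 CPM in other cells (log2 -3.54, SE 0.51, edgeR adjusted p = 0.180). It had 0 reads in 40 of 55 mitotic-program cells and 96 of 137 other cells, so the median cell of both classes had 0 CPM. With equal weight per cell its difference was -0.66 (limma adjusted p = 0.302). HERC5, a ligase that attaches ISG15 to proteins, had 28.7, 48.0 and 17.4 CPM in mitotic-program cells against 167, 117 and 155 CPM in other cells (log2 -2.34, SE 0.41, edgeR adjusted p = 0.244). In RSAD2 and HERC5 the sums of the classes did not overlap. HERC5 nevertheless had a read in 54.5% of mitotic-program cells and 38.7% of other cells, so its lower sum did not go with fewer cells. ISG15, a ubiquitin-like protein, had 260, 325 and 138 CPM in mitotic-program cells against 414, 528 and 464 CPM in other cells (log2 -1.04, SE 0.25, edgeR adjusted p = 0.394). With equal weight per cell its difference was 0.068, of the opposite sign, and 98.2% of mitotic-program cells and 94.2% of other cells had 10 CPM or more.

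IFIT2, an interferon-induced RNA-binding protein, also lay lower in the typical mitotic-program cell. Its sums were 1570, 1342 and 226 CPM in mitotic-program cells and 2566, 1858 and 3335 CPM in other cells (log2 -1.58, SE 0.75, edgeR adjusted p = 0.643). The median cell had 6.25 CPM among mitotic-program cells and 27.8 CPM among other cells, and the medians by batch were 10.5, 7.21 and 4.85 CPM in mitotic-program cells against 49.3, 11.1 and 73.4 CPM in other cells. At 10 CPM or more it was found in 21 of 55 mitotic-program cells (38.2%, interval 25.4 to 52.3%) and 94 of 137 other cells (68.6%, 60.1 to 76.3%), lower in all 3 batches (exact permutation within batches, p = 0.25, the smallest possible). At 1000 CPM or more, a level set after the values were seen, there were 5 mitotic-program cells (9.09%) and 22 other cells (16.1%). IFIT1, of the same gene family, had medians by batch of 131, 5.43 and 2.39 CPM in mitotic-program cells and 14.4, 9.81 and 23.1 CPM in other cells, higher in the mitotic-program cells of batch 1 and lower in those of batches 2 and 3. It reached 10 CPM in 50.9% of mitotic-program cells and 56.2% of other cells. In control cells IFIT2 reached 10 CPM in 11.1% of mitotic-program cells and 2.59% of other cells.

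Antigen presentation genes, which are broadly expressed, had smaller differences. Of 15 tested, none was called, 7 (46.7%) lay wholly below, beside 9.29% of all genes, and the list median was -0.54. B2M, the light chain of MHC class I, had 1548, 1590 and 1131 CPM in mitotic-program cells and 2141, 1889 and 1767 CPM in other cells (log2 -0.45, SE 0.11, edgeR adjusted p = 0.410), and every cell of both classes had a read. TAPBP, which loads peptides, had 193, 165 and 178 CPM in mitotic-program cells against 227, 287 and 281 CPM in other cells (log2 -0.56, SE 0.16, edgeR adjusted p = 0.467). Of 13 tested genes of the NF-kB response, none was called, 4 lay wholly below and 1 above, and the median was -0.73. The shares over all genes were 9.29% below and 7.36% above. NFKBIA, the inhibitor that NF-kB itself induces, had 45.8, 70.0 and 79.3 CPM in mitotic-program cells and 147, 141 and 146 CPM in other cells (log2 -1.19, SE 0.23, edgeR adjusted p = 0.281). SOD2, a mitochondrial superoxide dismutase, had 78.4, 61.3 and 40.4 CPM in mitotic-program cells against 172, 233 and 101 CPM in other cells (log2 -1.46, SE 0.22, edgeR adjusted p = 0.189).

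**Figure D3:**
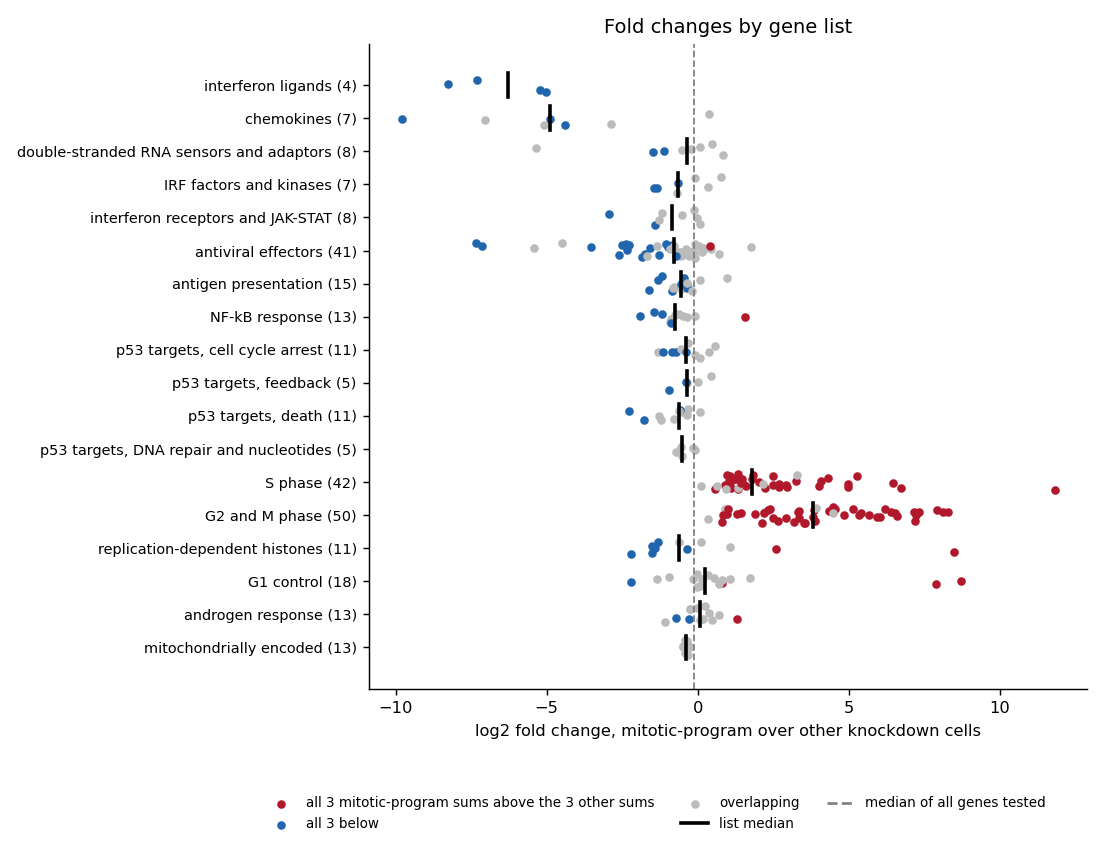
Log2 fold change of each tested gene (x axis, mitotic-program over other knockdown cells) by gene list, with the number tested in brackets, the list median as a black bar and the median of all genes (-0.12) as a dashed line. Red genes have all 3 mitotic-program sums above all other sums and blue genes all 3 below; the cell cycle lists lie to the right and most interferon and p53 lists to the left.

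The p53 targets were tested as 4 lists. Of 32 genes, none was called by edgeR. At an unadjusted p under 0.05, 6 were lower, beside 4.64% of all genes, and none higher, beside 4.33%. Of the 32, 26 were negative, and the median was -0.52. All mitotic-program sums lay below all other sums for 9 (28.1%), beside 9.29% of all genes, and above for none, beside 7.36%. DESeq2 called 4 of the 32 lower, beside 3.0% of all genes. These were CDKN1A, SESN1, TP53INP1 and ZMAT3. Limma with equal weight per cell called TP53INP1 lower, beside 0.0397% of all genes.

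CDKN1A, the p21 gene that arrests the cycle, had 109, 99.8 and 108 CPM in mitotic-program cells, against 201, 157 and 168 CPM in other cells (log2 -0.73, SE 0.15, edgeR adjusted p = 0.316). The 3 mitotic-program sums lay close together and below all other sums. The share of cells at 10 CPM or more was 78.2% in mitotic-program cells and 78.8% in other cells, close to each other. The median cell of batches 1, 2 and 3 had 49.7, 46.8 and 82.0 CPM among mitotic-program cells and 122, 78.6 and 109 CPM among other cells. ZMAT3, an RNA-binding p53 target, had 57.1, 29.2 and 39.2 CPM in mitotic-program cells against 108, 76.5 and 84.6 CPM in other cells (log2 -1.14, SE 0.22, edgeR adjusted p = 0.279). SESN1, a stress-induced inhibitor of growth signalling, had 58.8, 63.5 and 71.4 CPM in mitotic-program cells against 130, 96.8 and 123 CPM in other cells (log2 -0.85, SE 0.20, edgeR adjusted p = 0.376).

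Among the feedback genes, TP53INP1, which promotes p53 activity, had 255, 438 and 407 CPM in mitotic-program cells and 727, 771 and 573 CPM in other cells (log2 -0.94, SE 0.22, edgeR adjusted p = 0.372). With equal weight per cell its difference was -1.14 (SE 0.21, limma adjusted p = 0.0437). MDM2, the ligase that degrades p53, overlapped, with 673, 435 and 574 CPM in mitotic-program cells against 710, 794 and 641 CPM in other cells (log2 -0.37, SE 0.19, edgeR adjusted p = 0.666). Among the death genes FAS, a death receptor, also overlapped, with 61.0, 73.5 and 106 CPM in mitotic-program cells against 121, 123 and 94.1 CPM in other cells (log2 -0.52, SE 0.28, edgeR adjusted p = 0.685). PMAIP1, which encodes the BH3 protein NOXA, had 222, 123 and 138 CPM in mitotic-program cells and 334, 270 and 155 CPM in other cells (log2 -0.63, SE 0.22, edgeR adjusted p = 0.514). None of the 5 DNA repair and nucleotide genes lay wholly below, and their median was -0.52 in the sums and 0.072 with equal weight per cell. RRM2B, a p53-induced subunit of ribonucleotide reductase, had 99.3, 210 and 107 CPM in mitotic-program cells against 249, 189 and 203 CPM in other cells (log2 -0.70, SE 0.31, edgeR adjusted p = 0.612).

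**Figure D4:**
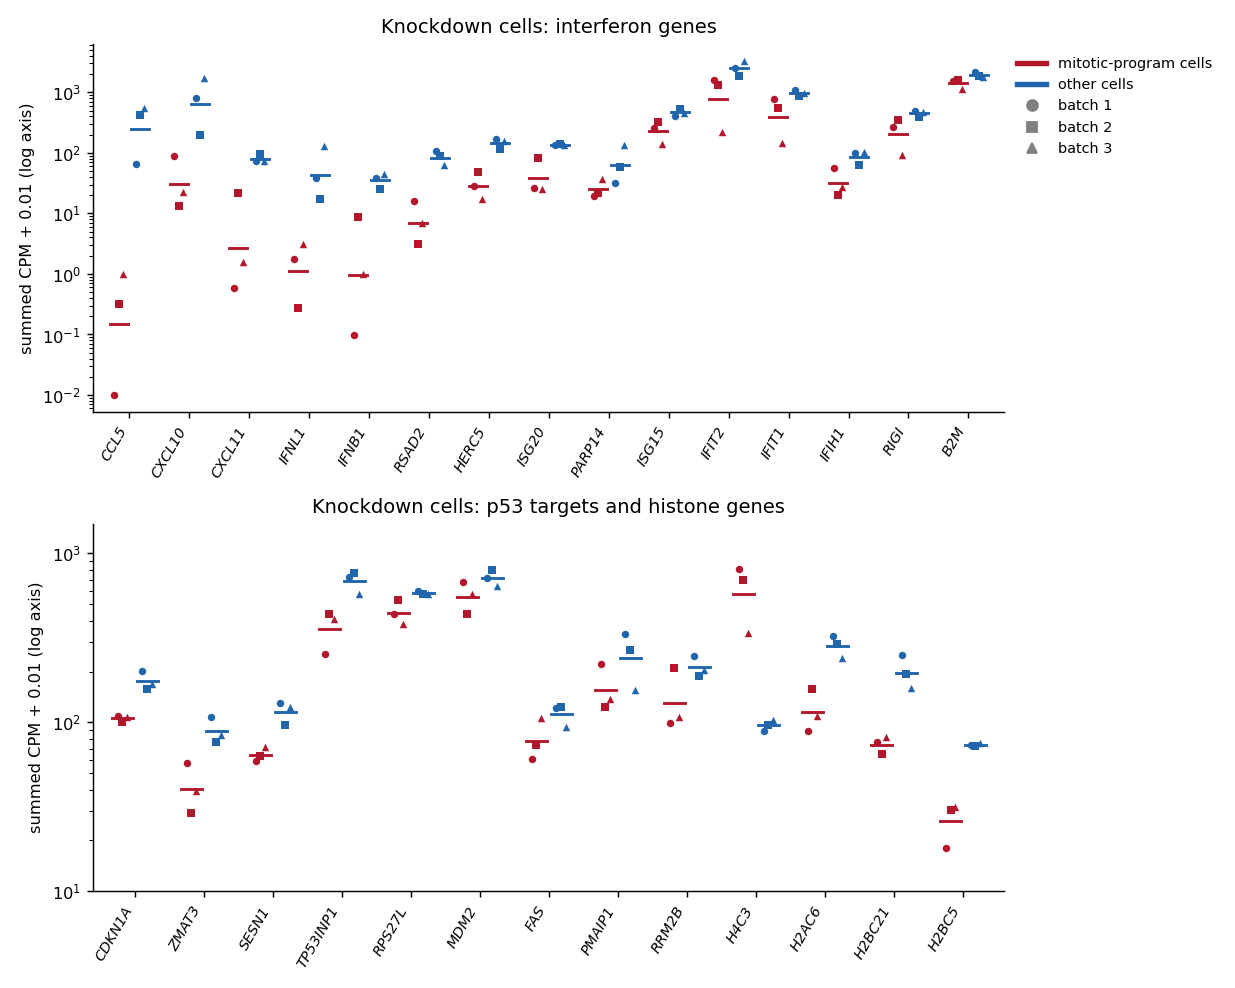
Summed CPM plus 0.01 (log axis) of interferon genes (upper panel) and of p53 targets and histone genes (lower panel) in mitotic-program sums (red, left) and other sums (blue, right) of knockdown cells, with 1 symbol per batch and the geometric mean as a line. CCL5 spans 0 to 0.979 CPM in mitotic-program cells and 66.4 to 559 CPM in other cells, while CDKN1A spans 99.8 to 109 CPM in mitotic-program cells and 157 to 201 CPM in other cells.

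Of 11 histone genes tested, none was called, 2 lay wholly above and 6 (54.5%) wholly below, beside 7.36% and 9.29% of all genes. H4C3, a histone made during DNA replication, had 805, 700 and 339 CPM in mitotic-program cells, against 89.3, 96.1 and 104 CPM in other cells (log2 2.59, SE 0.32, edgeR adjusted p = 0.131). H2AC6 and H2BC21 had lower values in the mitotic-program cells. H2AC6 had 88.3, 158 and 110 CPM in mitotic-program cells against 326, 293 and 242 CPM in other cells (log2 -1.30, SE 0.23, edgeR adjusted p = 0.244), and H2BC21 had 76.3, 64.7 and 81.5 CPM in mitotic-program cells against 249, 192 and 160 CPM in other cells (log2 -1.42, SE 0.21, edgeR adjusted p = 0.185). These histone genes are known to give polyadenylated transcripts in cells that do not divide. H2AC6 reached 10 CPM in 36 of 55 mitotic-program cells (65.5%) and 133 of 137 other cells (97.1%), lower in all batches (exact permutation within batches, p = 0.25, the smallest possible). With equal weight per cell the difference was -2.58 for H2AC6 (SE 0.39, limma adjusted p = 0.0263) and -2.33 for H2BC21 (SE 0.35, limma adjusted p = 0.0258). The 7 genes that limma called lower were H2AC6, H2BC21, H2BC5, TP53INP1 and, named after their values were seen, H2BC4, the nuclear noncoding RNA MALAT1 and STEAP2, a metalloreductase of prostate epithelium. Histone genes are alike in sequence, so reads may be split between copies.

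Levels were also compared by the number of the 6 genes. Cells with 0, 1 to 2, 3 to 4 and 5 to 6 of the genes numbered 39, 98, 32 and 23. The median H2AC6 level was 306, 197, 156 and 11.5 CPM over these 4 groups, and that of CDKN1A was 124, 93.6, 85.7 and 26.7 CPM. TP53INP1 had medians of 569, 562, 217 and 192 CPM, and IFIT2 27.8, 32.2, 5.73 and 6.51 CPM, so for these genes the step lay between 1 to 2 and 3 to 4 genes. The summed CPM of the p53 lists had medians of 4031, 3958, 3605 and 2480, and that of the interferon lists 6299, 5856, 5690 and 4708. RIGI had medians of 48.5, 41.3, 48.4 and 1.55 CPM, lower in the cells with 5 to 6 genes. Of the 23 cells with 5 to 6 genes only 2 were of batch 2, so these medians mostly describe batches 1 and 3, and the median number of reads per cell was 1148000, 1214000, 1247000 and 1351000 over the same groups. The groups are cut from the genes of the rule, and these values are a description with no test.

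**Figure D5:**
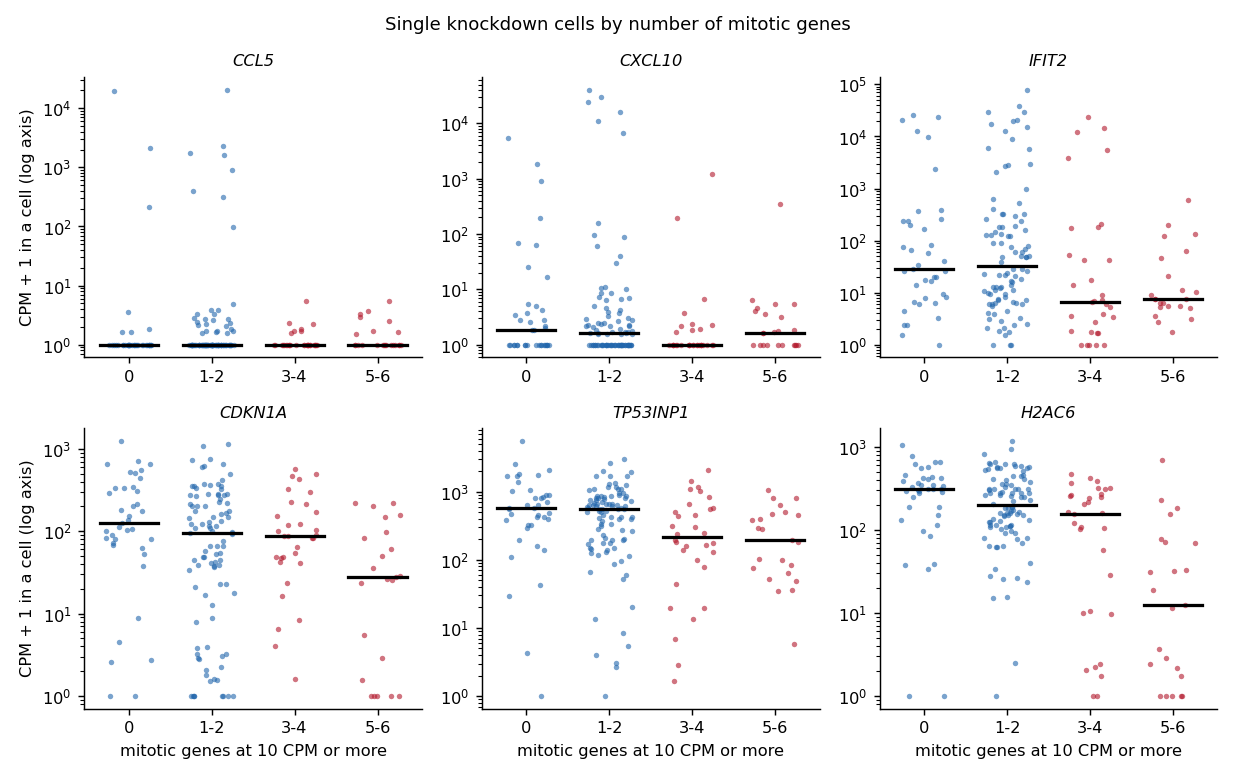
CPM plus 1 (log axis) of 6 genes in single knockdown cells, grouped by the number of the 6 mitotic genes at 10 CPM or more (x axis), with mitotic-program cells in red, other cells in blue and the group median as a black bar. CCL5 and CXCL10 have a few cells above 1000 CPM, mostly among the other cells, while H2AC6 and CDKN1A have their lowest medians, 11.5 and 26.7 CPM, in cells with 5 to 6 genes.

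Whether the class difference was larger in knockdown than in control cells was tested over 12 sums, as the interaction of class and arm. Of 20298 genes, none was called by edgeR at an adjusted p under 0.05 (0.0%). At an unadjusted p under 0.05, the class difference was lower in knockdown than in control for 749 genes (3.69%) and higher for 330 (1.63%). Without TMM scaling, CDKN1A had 59.2, 33.4 and 34.8 CPM in control mitotic-program cells and 26.7, 78.2 and 59.3 CPM in control other cells, so its class difference changed sign between control batches (interaction log2 -0.32, edgeR adjusted p = 1.0). TP53INP1 lay lower in the mitotic-program class of every control batch too, with 170, 298 and 138 CPM in control mitotic-program cells against 420, 685 and 474 CPM in control other cells (interaction 0.60, edgeR adjusted p = 0.902). The same was so for H2BC21, with 15.0, 15.2 and 17.3 CPM in control mitotic-program cells against 96.4, 33.3 and 113 CPM in control other cells (interaction 0.88, edgeR adjusted p = 0.908). ISG15 overlapped between the control classes, with 15.8, 34.5 and 32.8 CPM in mitotic-program cells and 18.1, 47.1 and 19.0 CPM in other cells (interaction -0.97, edgeR adjusted p = 0.902). RSAD2, IFNB1 and CXCL11 had no control reads in either class, so a difference between the arms cannot be fitted for them.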

How the data were processed

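The tools listed in the submitters' processing notes are TopHat2 2.1.0, HTSeq 0.6.1, FastQC 0.11.3 and edgeR 3.2.2, and the genome build is GRCh38.p3. The deposited values are whole read counts per gene and cell with no molecular identifiers. Of 36135 genes, 987 had no name. The 4 value columns that match no labelled cell were not used, and 4 labelled cells had no value column. Knockdown cells held 169244 to 2109867 reads. Members and gene lists were chosen with earlier results of these data known. Counts were summed by class and batch after leaving out the 6 genes of the rule, and tested with edgeR 4.0.16 (TMM, filterByExpr, robust quasi-likelihood, batch in the fit, Benjamini-Hochberg adjustment) in R 4.3.3. The filter keeps a gene with enough reads in the sums of only 1 class. Genes near 0 in 1 class, such as CCL5, IFNB1, IFNL2, IFNL3 and EXO1, were tested through the class where they are high. DESeq2 1.42.0 and limma 3.58.1 (log2(CPM + 1), each cell weighted equally) were alternatives. The batch pairs both classes because it is named in the labels. Named genes were the 10 largest rises and falls past the threshold, up to 5 members of each interferon, NF-kB, p53 and cell cycle list, and CDKN1A, MDM2, FAS, IFIT2, IFIT1, RIGI, IFNB1 and SULT2B1; others were chosen after their values were seen. Shares have exact Clopper-Pearson 95% intervals, which treat the pooled cells as independent and do not cover variation between batches. The fits were also run on simulated counts with the same spread for all genes, so those runs do not cover sums that follow single cells.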

Additional observations from a re-analysis of the deposited data

Results flagged for a closer look

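In 3 of the 50 named genes with at least 5 CPM in both arms (6.0%), the class difference had opposite directions in the arms in all batches, as it did in 302 of 9851 genes overall (3.07%), on the log2(CPM + 1) scale of sums without TMM scaling. PARP14, an antiviral effector, had a mean difference of -1.29 in knockdown cells (-0.58, -1.40 and -1.89 by batch) and differences of 1.68, 2.31 and 1.56 in control cells (interaction log2 -3.39, edgeR adjusted p = 0.827). IFIT2 had a mean of -1.67 in knockdown cells (-0.60, -0.51 and -3.90) and differences of 0.29, 3.68 and 1.02 in control cells (interaction -3.25, edgeR adjusted p = 0.902). Its control sums were low, between 7.33 and 11.8 CPM in mitotic-program cells and between 0 and 5.80 CPM in other cells. PMAIP1 had a mean of -0.61 in knockdown cells (-0.48, -1.17 and -0.18) and differences between 1.36 and 1.5 in control cells (interaction -1.98, edgeR adjusted p = 0.827). None of these interactions passed the threshold over 20298 genes.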

How the results depend on the processing

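The number of genes called, 17 with batch in the fit, was 34 without the replicate block, of which 11 were shared, 1100 with DESeq2, 39 without a filter on low counts, 188 with equal weight per cell in limma, 9 with at least 4 of the 6 genes, 10 with a CPM of 50 or more and 162 with cells thinned to 100000 reads and classed again, a setting chosen after seeing the data. It was 0 to 6 when 1 batch was left out. It was 0 against cells with none of the 6 genes and 0 without interferon-producing cells. That name covers any cell with at least 1 read of IFNB1, IFNL1, IFNL2 or IFNL3, which 19 of 55 mitotic-program and 35 of 137 other cells had. In these settings, in that order, 1064 and 1081 genes had an unadjusted p under 0.05 in edgeR. Without batches 1 and 2 in turn, 1216 and 1297 genes had one. Interferon genes called, 1 at first, were 0 without the block, 26 with DESeq2, 2 without the filter, 0 with equal weight, 0 to 1 with a batch left out, 0 against cells with none of the 6 genes, 0 without interferon-producing cells and 13 after thinning. Against cells with none of the 6 genes and without interferon-producing cells, CCL5 did not pass the filter on low counts and was not tested. Among knockdown cells with none of the 6 genes, it reached 19334 and 2162.5 CPM in cells of batch 2. In batches 1 and 3 such cells had at most 0.83 CPM. Outside interferon-producing cells its highest value in a knockdown cell was 95.2 CPM, in batch 1. The p53 targets called were 4 with DESeq2 and 1 with equal weight. The share of knockdown cells in the class, 28.6%, was 16.7% at a CPM of 50 or more, 20.3% with at least 4 genes and 32.8% after thinning. Against cells with none of the 6 genes, the log2 fold change turned to 1.76 for IFNB1, 0.26 for PARP14 and 0.15 for FAS, and with equal weight to 0.068 for ISG15. The cause was not tested. With equal weight the median of all genes was 0.08, against -0.12 in the sums. The 3 batches limit the tests, and sums follow the cells with the most reads.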
